A study of Arabidopsis thaliana with 2 samples.

Results

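CRWN1, CRWN2, CRWN3 and CRWN4 (CROWDED NUCLEI, also called LITTLE NUCLEI) and KAKU4 are the 5 loci described here, chosen by name, out of 21808 loci listed in at least 1 library. The tables listed 4 of the 5 loci in the crwn1 crwn2 library, as 5 transcript models, and 4 of the 5 in the wild-type library, as 4 transcript models. Polyadenylated RNA of 10-day Arabidopsis thaliana seedlings was sequenced in 1 library of the crwn1 crwn2 double mutant and 1 library of wild type. The sources used here name no alleles, insertion sites or number of seedlings per library. Reads were counted per transcript model, a splice form with its own row, and in units of 1000 reads the library totals were 2204 in crwn1 crwn2 and 2094 in wild type. With 1 library per genotype no difference has a replicate check, no test between genotypes was made, and every interval below is an exact 95% interval of counting error alone. In seedlings, fewer cells of a type and less RNA per cell cannot be told apart.

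The CRWN proteins are long coiled-coil proteins found only in plants. They form part of the meshwork under the inner nuclear membrane that takes the place of the animal lamina, and they set the size and shape of the nucleus. CRWN1 and CRWN4 lie at the nuclear rim. CRWN1, CRWN2 and CRWN3 belong to one branch of the family and CRWN4 to another, and plants without any CRWN protein are not viable. KAKU4 is a plant-specific protein of the inner nuclear membrane that binds CRWN1 and CRWN4.

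The 4 CRWN genes shared their exon plan. In each, the second to the fifth exon of the model taken here were 210, 254, 271 and 84 bases long, as annotated by RefSeq on TAIR10.1. Over these 819 bases, CRWN1, CRWN2 and CRWN3 were 59.1% to 60.1% identical to each other, and CRWN4 was 46.6% to 51.4% identical to them. The fifth exon shows how much sequence the copies share. It is printed in the sense of the transcript, 5′ to 3′, from chr1:25154476-25154559 (minus strand) for CRWN1, chr1:4517299-4517382 (plus) for CRWN2, chr1:25837778-25837861 (minus) for CRWN3 and chr5:26313232-26313315 (plus) for CRWN4. Capitals mark the 21 of 84 bases that were equal in all 4 genes.
CRWN1: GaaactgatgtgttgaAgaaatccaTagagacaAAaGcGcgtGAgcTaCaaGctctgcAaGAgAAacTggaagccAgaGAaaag
CRWN2: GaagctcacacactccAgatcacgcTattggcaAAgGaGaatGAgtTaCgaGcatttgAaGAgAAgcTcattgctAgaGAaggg
CRWN3: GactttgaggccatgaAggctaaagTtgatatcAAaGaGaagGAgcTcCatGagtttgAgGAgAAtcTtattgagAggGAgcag
CRWN4: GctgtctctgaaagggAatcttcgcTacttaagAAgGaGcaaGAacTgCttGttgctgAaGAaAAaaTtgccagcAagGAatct
The longest stretch that any pair of CRWN transcripts had in common was 17 bases, in CRWN1 and CRWN2. Reads were 49 bases long, and no 49-base stretch of the CRWN or KAKU4 models taken here had an exact copy elsewhere in the nuclear genome. Exact reads of one CRWN gene therefore could not be placed on another.

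The read columns are headed as unique reads, and the files behave as if a read found in more than 1 transcript model was not counted, so what a count measures differed between the 5 loci. A start position was called countable where its 49 bases occur in no other model of the same set. At 888 loci whose annotated models were all listed, the covered bases stayed within the countable bases, to 1 base, in 3033 of 3034 pairs of a model and a library. Only totals were compared, not positions, and a pair with few reads passes easily. In the 37 pairs with 200 or more reads, a median of 98.2% of the countable bases was covered. CRWN1 and CRWN3 have 1 annotated model each, so all their 3981 and 3643 bases were countable. For CRWN2, 2496 starts of model 2 and 245 of model 1 were countable, for KAKU4 54 starts of model 2, and for CRWN4 few or none, depending on the set of models. Levels compared between genes are therefore given per 1000 countable starts and per 1000000 reads, and not as RPKM.

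**Figure D1:**
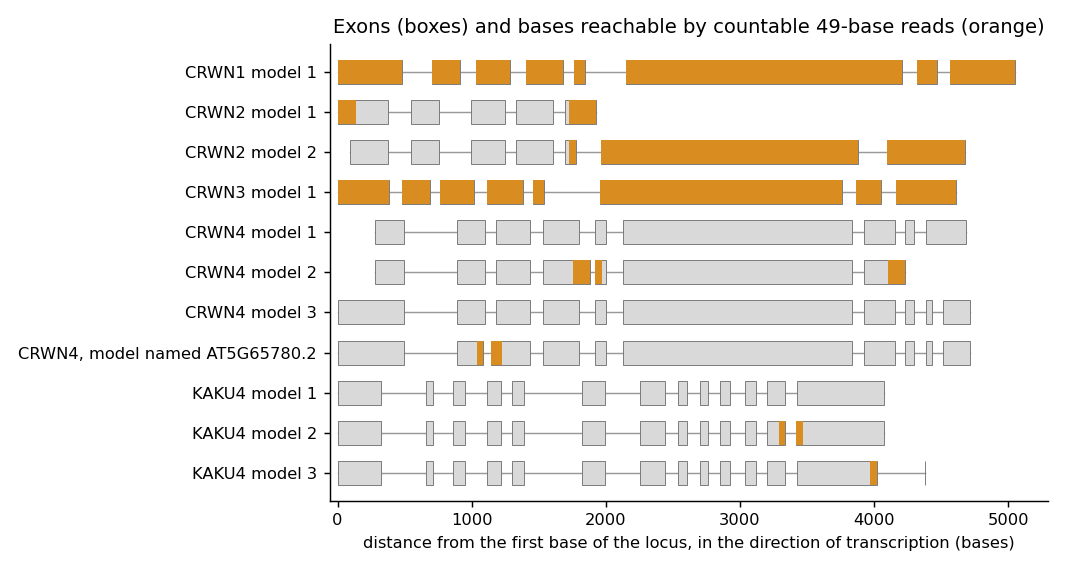
Exons of the transcript models in the set taken for each locus as boxes (CRWN2 without model 3, CRWN4 with AT5G65780.2 and KAKU4 with model 3 in the set), by distance in bases from the first base of the locus in the direction of transcription; bases that countable 49-base reads can reach are orange. All of CRWN1 and CRWN3 is orange, against 102 of 2104 bases of KAKU4 model 2 and no base of CRWN4 models 1 and 3, which have 175 and 495 such bases in the set without AT5G65780.2.

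CRWN1 and CRWN2, the genes named in the genotype, were the members whose counted reads were lower in the crwn1 crwn2 library. CRWN1 (AT1G67230, model 1, chr1:25151270-25156323, minus strand, TAIR10) had 57 reads in crwn1 crwn2 and 1021 in wild type, which is 6.50 and 122 RPKM. The mutant library thus held 5.31% of the wild-type share of reads (interval 3.99% to 6.93%), and the log2 ratio of RPKM + 1 was -4.04. A locus was called where it differed at least 2-fold on that scale with an interval excluding equality; of the 14393 loci that reached both 10 reads and 1 RPKM in either library (the measured loci), 4.53% were called lower and 6.34% higher. That is 652 loci lower and 912 higher, a split that turned to 826 lower and 691 higher after TMM scaling, which shifts log2 ratios by about -0.14. CRWN1 was called lower, and 1 measured locus had a lower ratio. None of the 4667 measured loci with at least 100 reads in wild type had a lower one.

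The CRWN1 reads that remained in the mutant library lay on a small part of the transcript. They covered 1008 of 3981 bases (25.3%) in crwn1 crwn2, against 3750 bases (94.2%) in wild type. The 57 mutant reads hold 2793 bases, so they overlapped each other heavily. At loci with 1 annotated model, 41 other models of the mutant library had a length and a read number within 1.25-fold of CRWN1. Their coverage ranged from 31.6% to 63.5%, with a median of 49.8%, so that CRWN1 lay below all 41. In wild type, 5 such models had 92.7% to 97.5%, and CRWN1 lay inside that range. The files give no read positions, so the covered part of the transcript cannot be located.

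**Figure D2:**
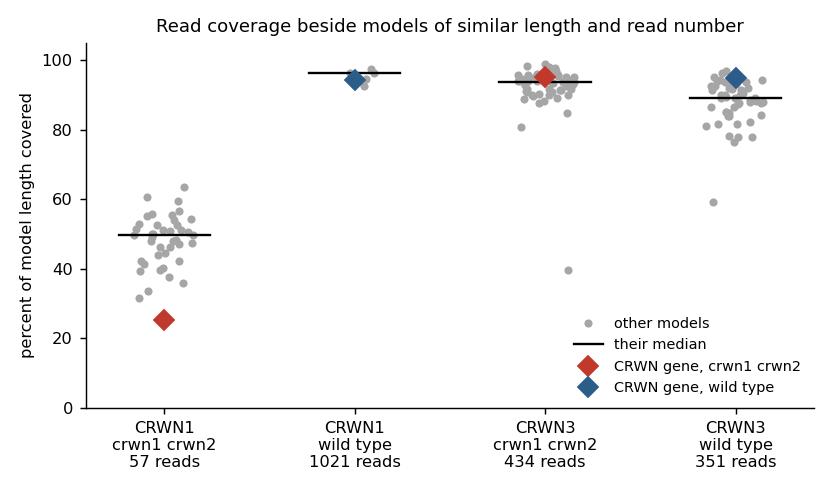
Percent of model length covered by reads (vertical axis) for CRWN1 and CRWN3 (diamonds) in crwn1 crwn2 and wild type, beside other models of the same library with similar length and read number (grey points, median as a bar). CRWN1 at 25.3% in crwn1 crwn2 is the only diamond below every grey point.

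CRWN2 (AT1G13220, chromosome 1, plus strand) has a short and a long model. Model 2 (chr1:4515699-4520284) carries 3387 coding bases. Model 1 (chr1:4515606-4517534) carries 1176 coding bases and reads through the end of the fifth exon into a stop codon. The sequences show the split, which decides where a read counts for one model alone; the lower-case bases end the part of the fifth exon held by both, and the capitals are what follows in model 2 (chr1:4517335-4517382 joined to chr1:4517573-4517620) and in model 1 up to its stop codon (chr1:4517335-4517415).
CRWN2 model 2: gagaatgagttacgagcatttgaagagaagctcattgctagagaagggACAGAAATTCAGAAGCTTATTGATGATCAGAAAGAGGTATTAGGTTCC
CRWN2 model 1: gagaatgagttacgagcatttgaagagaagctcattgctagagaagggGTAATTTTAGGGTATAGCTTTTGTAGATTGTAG
The annotation also holds a longer model 3 that contains all of model 2. With it in the counted set model 2 could have had no counted read, and since it had many, that model was left out of the sets used here.

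Model 2 of CRWN2 had 6 reads in crwn1 crwn2 and 148 in wild type, 0.756 and 19.6 RPKM. The mutant library held 3.85% of the wild-type share (1.39% to 8.59%). Reads covered 294 bases in crwn1 crwn2, where no read overlapped another, and 2208 of the 2544 countable bases (86.8%) in wild type. Model 1 had 3 reads in crwn1 crwn2, on 147 bases, and none in wild type. Its 245 countable starts put the limit of 3 counts at 5.85 reads per 1000 starts in wild type, above the 5.56 seen in crwn1 crwn2, so no difference in model 1 was detectable at this depth. Summed over both models, CRWN2 had 9 reads in crwn1 crwn2 and 148 in wild type, 5.78% of the wild-type share (2.59% to 11.3%). That range includes all of the CRWN1 interval, but the shares cover different parts of the genes. No base of exons 1 to 4 of CRWN2 model 2 was countable. Model 1 was countable only near its start and from within its exon 5 onward. RNA from the rest of the shared 5′ exons was not counted in either library, so its level in crwn1 crwn2 is not known. All of CRWN1 was countable. The summed RPKM gave a log2 ratio of -2.90 and model 2 alone -3.55. CRWN2 was called lower both ways.

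CRWN3 (AT1G68790, model 1, chr1:25834709-25839319, minus strand) had 434 reads in crwn1 crwn2 and 351 in wild type, 54.1 and 46.0 RPKM. Its log2 ratio of 0.23 was not called. The ratio of read shares was 1.18 (1.02 to 1.36), which leaves out equality for equal library totals, and 1.07 (0.927 to 1.24) after TMM scaling, which does not. The median of all measured loci was 0.12 on the log2 scale. Reads covered 95.1% of CRWN3 in crwn1 crwn2 and 94.8% in wild type, so the reads of this paralog lay along nearly the whole transcript in both libraries.

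CRWN4 (AT5G65770, chromosome 5, plus strand) was listed in neither library, which is 0 counted reads. The annotation places 4 models at the locus: models 1, 2 and 3, and 1 that carries the neighbour's name, AT5G65780.2. Set beside each other and beside the overlapping model of BCAT5, a branched-chain aminotransferase gene, models 1 and 3 have no countable start at all. Whether the authors' set held AT5G65780.2 is not stated, and it was listed in neither library; with the 3 AT5G65770 models alone, models 1, 2 and 3 have 127, 209 and 351 countable starts. Model 2 has 209 in either case, part of them where the fourth exon is extended. That stretch is printed because it is a place where CRWN4 could have been counted; capitals mark the 81 bases of the fourth exon that no other model of the locus holds (chr5:26313110-26313190), between 48 bases on either side in the spliced transcript.
CRWN4 model 2: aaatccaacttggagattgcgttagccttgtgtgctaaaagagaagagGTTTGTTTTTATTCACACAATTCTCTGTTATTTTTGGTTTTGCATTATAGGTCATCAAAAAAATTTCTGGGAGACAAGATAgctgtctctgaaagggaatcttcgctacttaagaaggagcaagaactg
With 0 reads, 3 counts limit model 2 to 6.51 reads per 1000 starts in crwn1 crwn2 and 6.85 in wild type. With the 3 AT5G65770 models alone the same limit would be 10.7 in crwn1 crwn2 and 11.3 in wild type for model 1, and 3.88 in crwn1 crwn2 and 4.08 in wild type for model 3. With AT5G65780.2 in the set, models 1 and 3 have no measure of their level in these tables.

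KAKU4 (AT4G31430, chromosome 4, plus strand) was listed as model 2 alone (chr4:15248456-15252529), and its countable reads lie around a single splice junction. Models 1 and 2 differ at the start of the thirteenth exon, where model 2 begins 8 bases earlier. The shift changes the reading frame, and the coding length is 1725 bases in model 2 and 1458 in model 1. The bases around this junction hold all 102 countable bases of model 2; model 2 joins chr4:15251746-15251793 to chr4:15251871-15251926, and capitals mark its 8 own bases.
KAKU4 model 2: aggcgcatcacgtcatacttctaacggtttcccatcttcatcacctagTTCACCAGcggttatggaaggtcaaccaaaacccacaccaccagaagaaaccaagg
KAKU4 model 1: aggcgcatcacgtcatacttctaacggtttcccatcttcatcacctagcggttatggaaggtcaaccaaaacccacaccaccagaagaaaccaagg
With all annotated models in the set, model 2 has 54 countable starts, model 3 has 6 and model 1 none. Model 2 had 19 reads in crwn1 crwn2 and 17 in wild type, on 83 and 92 bases. The ratio of read shares was 1.06 (0.523 to 2.18). The log2 ratio of 0.07 became -0.04 after TMM scaling and was not called either way. These values count reads over the earlier acceptor only. That model 1 has no countable start depends on model 3, which begins its thirteenth exon at the same base as model 1. Model 3 was listed in neither library, and whether the authors' set held it is not stated. Countable starts of model 1 in a set without model 3 were not computed, so its missing reads are not read as a level.

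**Figure D3:**
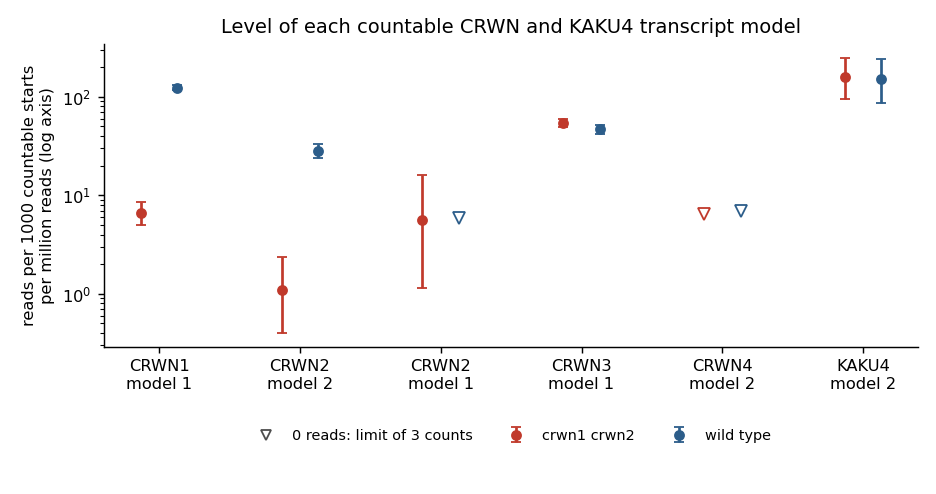
Reads per 1000 countable starts per 1000000 reads (log axis) for CRWN1, CRWN2 models 1 and 2, CRWN3, CRWN4 model 2 and KAKU4 model 2 in crwn1 crwn2 and wild type. Bars are exact Poisson 95% intervals and open triangles the limit of 3 counts where no read was found. Other countable models of the members, all without a read, are not drawn. CRWN1 and CRWN2 model 2 are far lower in crwn1 crwn2, while the intervals of KAKU4 model 2 overlap between the libraries.

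Per countable start, the order of the members changed between the genotypes. In crwn1 crwn2, KAKU4 model 2 stood highest at 160 reads per 1000 starts (96.1 to 249), then CRWN3 at 54.8 (49.7 to 60.2), CRWN1 at 6.58 (4.98 to 8.52) and CRWN2 model 2 at 1.09 (0.400 to 2.37), and no pair of these intervals overlapped. CRWN2 model 1, with 3 reads, had 5.56 in crwn1 crwn2 (1.15 to 16.2), an interval that overlaps those of CRWN1 and of CRWN2 model 2, so the order of CRWN1 and CRWN2 holds for model 2 alone. In wild type KAKU4 model 2 had 150.3 (87.6 to 241) and CRWN1 124 (116 to 132), which did not differ beyond counting error. CRWN3 had 46.6 (41.9 to 51.8) and CRWN2 model 2 had 28.3 (23.9 to 33.3), each apart from its neighbours in the order. The level of KAKU4 comes from 54 starts on 1 junction, and it stands on fewer positions than any other. The summed level of CRWN1, CRWN2 model 2 and CRWN3 was 62.5 in crwn1 crwn2 and 199 in wild type. CRWN3 made up 87.7% of that sum in crwn1 crwn2 and 23.4% in wild type, and CRWN1 made up 10.5% in crwn1 crwn2 and 62.3% in wild type. CRWN4, with no counted read and few or no countable starts, is not in the sum. The percentages are therefore not shares of all CRWN RNA.

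A list of 27 other genes of the nuclear envelope and pore showed no call, in either direction, among its 17 measured members, against 6.34% called higher and 4.53% called lower over all measured loci. For 17 genes, the absence of a call does not set the list apart from those shares. The median log2 ratio of the 17 was -0.04, against 0.12 over all, with a range of -0.83 to 0.46. SUN1 and SUN2, which span the inner membrane and hold the bridge to the cytoplasm, had log2 ratios of -0.04 and 0.30. The other measured SUN genes, SUN3 and SUN4, had -0.81 and -0.24. Of the outer-membrane partners of that bridge, WIP1 had 0.31, WIP2 -0.83, WIP3 -0.10 and WIT1 -0.25. SUN3 had 151 reads in crwn1 crwn2 and 255 in wild type, and WIP2 had 50 in crwn1 crwn2 and 88 in wild type. With a threshold of 1.5-fold these 2 of the 17 were called lower, against 8.3% of all measured loci, and none was called higher, against 13.8%.

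None of the measured pore and other lamina-linked genes was called, against 6.34% called higher and 4.53% called lower over all measured loci. They are part of the 17, so this absence does not set them apart either. The nucleoporin genes NUP1, which affects nuclear morphology, NUP155, AT5G20200 and AT4G32910 had log2 ratios of 0.23, 0.15, 0.19 and -0.15. RANGAP2, an activator of the Ran GTPase, had 0.15, and the microtubule-nucleation genes GIP1 and GIP2 had -0.28 and 0.02. AT5G46070, a guanylate-binding family gene, had 346 reads in crwn1 crwn2 and 237 in wild type, a log2 ratio of 0.46 that was the highest of the 17 measured genes. AT3G03140, a Tudor/PWWP/MBT family gene, had -0.26. Of the other 10 genes, 8 were listed below the floor of reads and 2, the myosin gene XI-I and the pore basket gene NUA, were not listed. Each of these 10 has 2 or more annotated models, whereas all 12 genes of the list with 1 annotated model were measured. Reads found in more than 1 model appear not to be counted, so few counted reads need not mean little RNA.

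**Figure D4:**
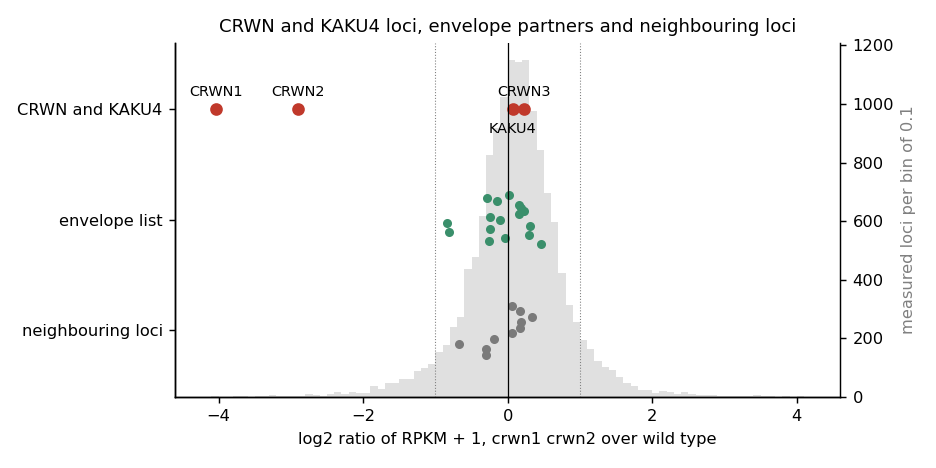
Log2 ratio of RPKM + 1, crwn1 crwn2 over wild type, for the measured CRWN and KAKU4 loci, the envelope list and the neighbouring loci (points, rows) over the distribution of all measured loci (grey, right axis); dotted lines mark 2-fold. CRWN1 at -4.04 and CRWN2 at -2.90 are the only points outside the dotted lines.

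The measured neighbours of the 5 loci on the chromosomes were not called, against 6.34% called higher and 4.53% called lower over all measured loci. With 10 measured neighbours, the absence of a call does not set them apart from those shares. Of the 20 nearest listed loci, 2 on either side of each member, 10 were measured, with log2 ratios of -0.67 to 0.33 and a median of 0.06. Next to CRWN1, AT1G67210 had 0 reads in crwn1 crwn2 and 2 in wild type, HAC2 had 0 and 1, AT1G67240 had 1 and 0, and AT1G67250 had 50 and 59 (-0.30). Next to CRWN2, AT1G13195 had 0 reads in crwn1 crwn2 and 2 in wild type, ACA.l had 205 and 242 (-0.30), AT1G13230 had 1 and 0, and RTFL17 had 83 and 126 (-0.67), the lowest ratio of the 10. The loci nearest to CRWN1 thus held too few reads for a comparison. BCAT5, which overlaps the end of CRWN4, had 164 reads in crwn1 crwn2 and 123 in wild type, a log2 ratio of 0.33, and MYB68 beyond it had 43 and 36 (0.17). On the other side of CRWN4, AT5G65760 had 120 reads in crwn1 crwn2 and 100 in wild type (0.18) and AT5G65750 had 400 and 336 (0.17). Around CRWN3, NUDX1 had 54 reads in crwn1 crwn2 and 59 in wild type (-0.20), AT1G68780 had 85 and 77 (0.07), CLE12 had 4 and 2, and TCP12 had 3 and 1. Beside KAKU4, AT4G31410 had 9 reads in crwn1 crwn2 and 4 in wild type, AT4G31420 had 4 and 1, AT4G31440 had 22 and 20 (0.06), and AT4G31441 had 1 in each library.

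The loci most like the members were sought by the difference of log2 ratios, which rests on 1 ratio between 2 libraries and so sets no pattern over samples. Nearest to CRWN1 came JAZ7, a jasmonate repressor gene (-3.79), AT2G22880 (-3.71) and AT3G29970, which had 0 reads in crwn1 crwn2 and 11 in wild type (-3.69, a value that depends on the pseudocount), at a distance of 0.26 or more. Nearest to CRWN2 were AT2G35290 (-2.92), the jasmonate-catabolic gene CYP94B3 (-2.84) and SOB5 (-2.98). This likeness also depends on the pseudocount and on summing RPKM over models. By counted reads, which leave out most of the shared 5′ exons of CRWN2, the mutant library held 5.78% of the wild-type share for CRWN2. The values were 9.50% for AT2G35290, 13.1% for CYP94B3 and 9.50% for SOB5. AT3G52230, AT5G49220 and AT1G15250 had the ratio of CRWN3, 0.23, with both libraries at a similar level.

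Marker genes of the seedling's parts were read beside these values. All 5 leaf and shoot markers were measured and none was called, with log2 ratios of -0.78 to 0.49 and a median of 0.10, against 0.12 over all measured loci. Their summed level was 8244 RPKM in crwn1 crwn2 and 12399 in wild type, of which the light-harvesting gene CAB1 made up 6234 in crwn1 crwn2 and 10699 in wild type. The other 4 summed to 2010.1 RPKM in crwn1 crwn2 and 1701 in wild type, so the sum follows CAB1. Of the 5, the light-harvesting genes CAB1 (-0.78) and LHCB2.2 (-0.66) had log2 ratios below 0, and the other 3 had ratios above 0. Of the 6 markers of dividing cells, all had log2 ratios above 0 and 4 were called higher, against 6.34% of all measured loci, with a summed level of 182 RPKM in crwn1 crwn2 and 71.9 in wild type. Of 5 root markers 4 were measured and 2 were called higher, the root hair genes EXPA7, with 14 reads in crwn1 crwn2 and 0 in wild type, and COBL9, with 23 and 1. The 4 measured root markers had log2 ratios of 0.17 to 2.84 with a median of 1.63. The root sum was 2577 RPKM in crwn1 crwn2 and 2276 in wild type, nearly all of it PYK10 (2560 in crwn1 crwn2 and 2273 in wild type), and NRT2.1 was not listed. Seed and floral markers were at most 5 reads in any library. The part of these shifts in the levels of CRWN3 and KAKU4 was not tested.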

How the data were processed

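The authors deposited, per the file headers, whole-number counts of uniquely placed reads per transcript model, the percent of model length covered, and RPKM, which equals the counts divided by model length and header total. Coordinates are on TAIR10 (per the submitters' processing notes). No aligner, set of models, counting rule or strand handling is named in the sources used here. Models without reads have no row. Counts of all listed models sum to the header totals.

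Reads and RPKM were summed per locus. Ratios are log2(RPKM + 1), crwn1 crwn2 over wild type. Read ratios have exact conditional binomial (Clopper-Pearson) intervals and levels exact Poisson intervals. With 1 library per genotype these intervals cover counting error only. PCR copies are not independent molecules, so the intervals may be too narrow even for that. No value has a p-value. TMM factors came from edgeR 4.0.16 (1.05 for crwn1 crwn2, 0.954 for wild type). Exons and sequences were read from the RefSeq TAIR10.1 genome and annotation; of 23637 models with the same name, 97.0% had the same chromosome, strand and length once cut to the ends in the files. Countable starts allow no mismatch and compare models of a locus (for CRWN4 also the overlapping BCAT5 model). The calling and countable-start steps were tested on simulated data.

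The members and lists were chosen with earlier results of these data known. Named genes are the members, every measured gene of the envelope list, the 2 nearest listed loci on either side and the 3 loci nearest in ratio to CRWN1, CRWN2 and CRWN3; markers serve as a check of the tissue. Alternatives were a pseudocount of 0.1, TMM scaling, CPM, 1 model per locus, no floor, a 1.5-fold threshold and, added after seeing the data, loci with 1 annotated model.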

Additional observations from a re-analysis of the deposited data

How the results depend on the processing

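The 4 measured members kept their call in all 16 alternatives (pseudocount of 0.1, TMM scaling, CPM, and the listed model with the most reads). CRWN1 ranged from -4.22 to -4.04 and CRWN2 from -3.82 to -2.90, both called lower throughout. CRWN3 and KAKU4 were called in none, and KAKU4 turned to -0.04 after TMM scaling. TMM scaling also turned the split of all measured loci to 691 called higher and 826 lower, against 912 and 652 with header totals, and brought the median log2 ratio to -0.0085, against 0.12. With a 1.5-fold threshold 1993 loci were called higher and 1194 lower, and 2 genes of the envelope list, SUN3 and WIP2, were called lower. With no floor 1 gene of the list, AT1G09470, with 6 reads in crwn1 crwn2 and 0 in wild type, was called higher. The other 20 of 24 counts stayed within 1.5 times, among them 613 higher and 456 lower over 8931 measured loci with 1 annotated model. No paired analysis was possible because each genotype has 1 library. CRWN4 had no read and so no ratio under any setting. Depth limits KAKU4, where a 2-fold increase lies inside the interval, and CRWN2, with 9 mutant reads.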

Other observations

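CRWN4 is 1 of 161 among 1126 nuclear coding loci with 4 annotated models that were listed in neither library (14.3%). The share was 12.8% for loci with 2 annotated models, 13.6% with 3 and 13.8% with 5 or more. Of loci with 1 annotated model, 31.4% were listed in neither library. At the 888 loci whose several models were all listed, a median of 13.0% of a model's length was countable, and KAKU4 model 2, at 4.85%, lay below that median while CRWN2 model 2, at 70.7%, lay above it. Reads covered 73.9% of the 1915 countable bases of BCAT5, the gene that overlaps CRWN4, in crwn1 crwn2 and 75.9% in wild type.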
